A study of Homo sapiens with 8 samples.

Results

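The genotype difference in spindle-to-input ratio asks, gene by gene, whether the RNA found in a mitotic spindle preparation, relative to the whole-cell RNA it came from, differed between cells that lack STAU1 and their parents. It was computed on log2(FPKM + 1) as the STAU1-KO spindle mean minus the STAU1-KO input mean, less the WT spindle mean minus the WT input mean. FPKM is the number of fragments on a gene scaled to transcript length and, in the authors' table, to their size factor of each library in place of its read total. A positive value therefore means a higher spindle-to-input ratio in STAU1-KO cells. Genes with an FPKM of at least 1 in at least 2 libraries were kept and chromosome Y was left out, which gave 17210 genes of the 17788 in the authors' table, of which 11666 code for protein.

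All samples were HCT116 cells, a long-established line from a human colorectal cancer. The groups were spindles and input of a STAU1 knockout made by CRISPR (STAU1-KO), and spindles and input of wild-type (WT) cells, with 2 libraries in each of the 4 groups. Both genotypes had the same treatment, which was 16 h with the CDK1 inhibitor RO-3306, release into 100 µM taxol for 15 min and collection of mitotic cells by shake-off. Spindles were pelleted through a glycerol cushion, and ribosomal RNA was depleted before stranded total RNA libraries were made. All STAU1-KO libraries carry the code of 1 clone, so that loss of STAU1 and clone cannot be told apart. Nothing in the labels places the replicates in separate cultures, and p-values measure the spread between these libraries.

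STAU1 encodes Staufen1, which binds double-stranded regions of RNA and takes part in RNA transport, in translation and in the decay of bound messages. Part of it associates with the mitotic spindle, the microtubule array that separates chromosomes. Some messages are known to gather at spindles and centrosomes, often while they are being translated. A spindle pellet can also hold chromatin, organelles and nuclear remnants, so that an RNA in it need not be bound to microtubules. FPKM is a relative measure, and a lower amount of 1 RNA cannot be told apart from higher amounts of others.

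Reads on the listed genes numbered 5.21 M to 14.6 M a library. The WT spindle libraries were the least alike, with an SD of the replicate difference of 0.695 on the log2 scale, against 0.304 to 0.381 in the other groups. The 28S ribosomal RNA gene RNA28S5 held 10.99% and 10.81% of the reads in STAU1-KO spindles, 13.6% in WT spindle replicate 1 and 46.1% in WT spindle replicate 2. Its part in the results below was not tested, and list medians are given without WT spindle replicate 1 or 2 where that moves them by over a factor of 1.5. All 8 markers of colorectal epithelium (EPCAM, CDH1, KRT8, KRT18, KRT19, CLDN3, CLDN4, CLDN7) were at an FPKM of at least 1 in every library. Of 6 fibroblast markers only COL1A1 is in the table, and none of the 5 haematopoietic and 3 endothelial markers is.

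In all, 16 genes differed between the genotypes in limma at a Benjamini-Hochberg adjusted p under 0.05 (0.093% of the genes tested), 13 with a higher ratio in STAU1-KO cells (0.0755%) and 3 with a lower one (0.0174%). No gene was called with coding medians set equal, with library weights, with a replicate block or without any 1 of the 6 libraries other than WT spindles, while 3848 were called without WT spindle replicate 1 and 3938 without replicate 2, the 16 among them both times. A further 55 genes, 49 higher and 6 lower, shared the adjusted p next above the threshold, 0.05003. At an unadjusted p under 0.05 there were 2229 genes higher and 1254 lower, and at an adjusted p under 0.1 there were 820, of which 646 were higher. For 4054 genes (23.6%) all 4 spindle-to-input ratios that the STAU1-KO libraries can form lay above all 4 of the WT libraries, and for 2902 (16.9%) they lay below. With coding sums set equal the balance was the other way, at 2026 above and 4958 below, and with equal upper quartiles it was 3041 above and 4181 below. Among coding genes these shares were 30.6% above and 16.4% below. The median difference over all tested genes was 0.02, and between -0.20 and 0.27 under the other scalings, so that directions of single genes hold relative to that median.

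Of the 13 genes that rose, 11 code for protein. All 13 had more RNA in STAU1-KO than in WT spindles, while their inputs lay closer together. They are ordered below by what their proteins do, an order made after the values were seen and not tested as a theme. The p-values sit just under the threshold, between 0.0436 and 0.0499.

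SELENOF encodes a selenoprotein of the endoplasmic reticulum (ER) that takes part in protein folding. It had an FPKM of 19.6 and 18.8 in STAU1-KO spindles and of 53.6 and 53.3 in STAU1-KO input, against 5.08 and 4.96 in WT spindles and 55.5 and 56.4 in WT input. The inputs were nearly level and the spindles did not overlap, so that the ratio was 3.51-fold higher in STAU1-KO cells. As a log2 difference this was 1.81 (SE 0.13, limma adjusted p = 0.0436).

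CNIH1 is a cargo receptor that carries growth factor precursors out of the ER. It had an FPKM of 20.1 and 19.4 in STAU1-KO spindles and of 40.0 and 41.7 in STAU1-KO input, against 4.64 and 4.12 in WT spindles and 39.5 and 43.2 in WT input. The input libraries of the genotypes interleaved and the spindle libraries stood apart (1.96, SE 0.15, limma adjusted p = 0.0436).

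YIPF5, a Golgi membrane protein of ER-to-Golgi traffic, was at 7.21 and 7.22 in STAU1-KO spindles and 10.5 and 11.4 in STAU1-KO input, against 1.96 and 1.69 in WT spindles and 11.4 and 12.4 in WT input. The difference was 1.65 (SE 0.14, limma adjusted p = 0.0462). SERINC1, a membrane protein of the serine incorporator family, was at 32.0 and 30.9 in STAU1-KO spindles and 26.6 and 27.8 in STAU1-KO input, against 7.70 and 8.48 in WT spindles and 22.6 and 25.7 in WT input. Among the 11 coding genes it was the one whose STAU1-KO spindles lay above their own input, while its WT spindles lay below theirs (1.67, SE 0.15, limma adjusted p = 0.0481).

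TSPAN6 belongs to the tetraspanins, which organise membrane microdomains. It was at 7.76 and 7.07 in STAU1-KO spindles and 12.2 and 13.7 in STAU1-KO input, against 1.63 and 1.56 in WT spindles and 13.3 and 12.4 in WT input (1.69, SE 0.14, limma adjusted p = 0.0462). EMP3, an epithelial membrane protein, was at 15.0 and 14.8 in STAU1-KO spindles and 20.3 and 19.6 in STAU1-KO input, against 2.39 and 2.36 in WT spindles and 13.4 and 11.1 in WT input (1.57, SE 0.15, limma adjusted p = 0.0495). Its inputs differed as well, with both STAU1-KO libraries above both WT ones, and it had the highest GC content of the 13 (52.8%). STEAP1, a metalloreductase family protein of the plasma membrane, was at 6.65 and 6.07 in STAU1-KO spindles and 9.20 and 9.09 in STAU1-KO input, against 1.75 and 2.14 in WT spindles and 9.88 and 9.82 in WT input (1.42, SE 0.14, limma adjusted p = 0.0499).

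Of the other coding genes, CDK7 and GTF2B act in transcription by RNA polymerase II. CDK7, the kinase of the CDK-activating complex and of TFIIH, was at 16.3 and 15.2 in STAU1-KO spindles and 23.9 and 23.6 in STAU1-KO input, against 7.10 and 7.15 in WT spindles and 30.0 and 28.9 in WT input (1.34, SE 0.13, limma adjusted p = 0.0489). Part of that difference lies in the input, where both STAU1-KO libraries were below both WT libraries. GTF2B, the general transcription factor TFIIB, was at 19.9 and 18.1 in STAU1-KO spindles and 19.4 and 20.4 in STAU1-KO input, against 6.32 and 6.86 in WT spindles and 20.6 and 22.3 in WT input (1.499, SE 0.14, limma adjusted p = 0.0489). In STAU1-KO cells its spindles and inputs overlapped, and in WT cells the spindles lay far below.

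SNRPF, an Sm protein of the spliceosome core, was at 6.67 and 5.91 in STAU1-KO spindles and 27.4 and 26.8 in STAU1-KO input, against 2.01 and 1.90 in WT spindles and 33.9 and 30.0 in WT input (1.53, SE 0.15, limma adjusted p = 0.0489). NDUFA4, a subunit of the respiratory chain, was at 9.47 and 7.83 in STAU1-KO spindles and 31.4 and 29.4 in STAU1-KO input, against 2.72 and 2.67 in WT spindles and 34.1 and 34.9 in WT input (1.56, SE 0.16, limma adjusted p = 0.0499). Both messages were depleted from spindles in either genotype, and less so in STAU1-KO cells.

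**Figure D1:**
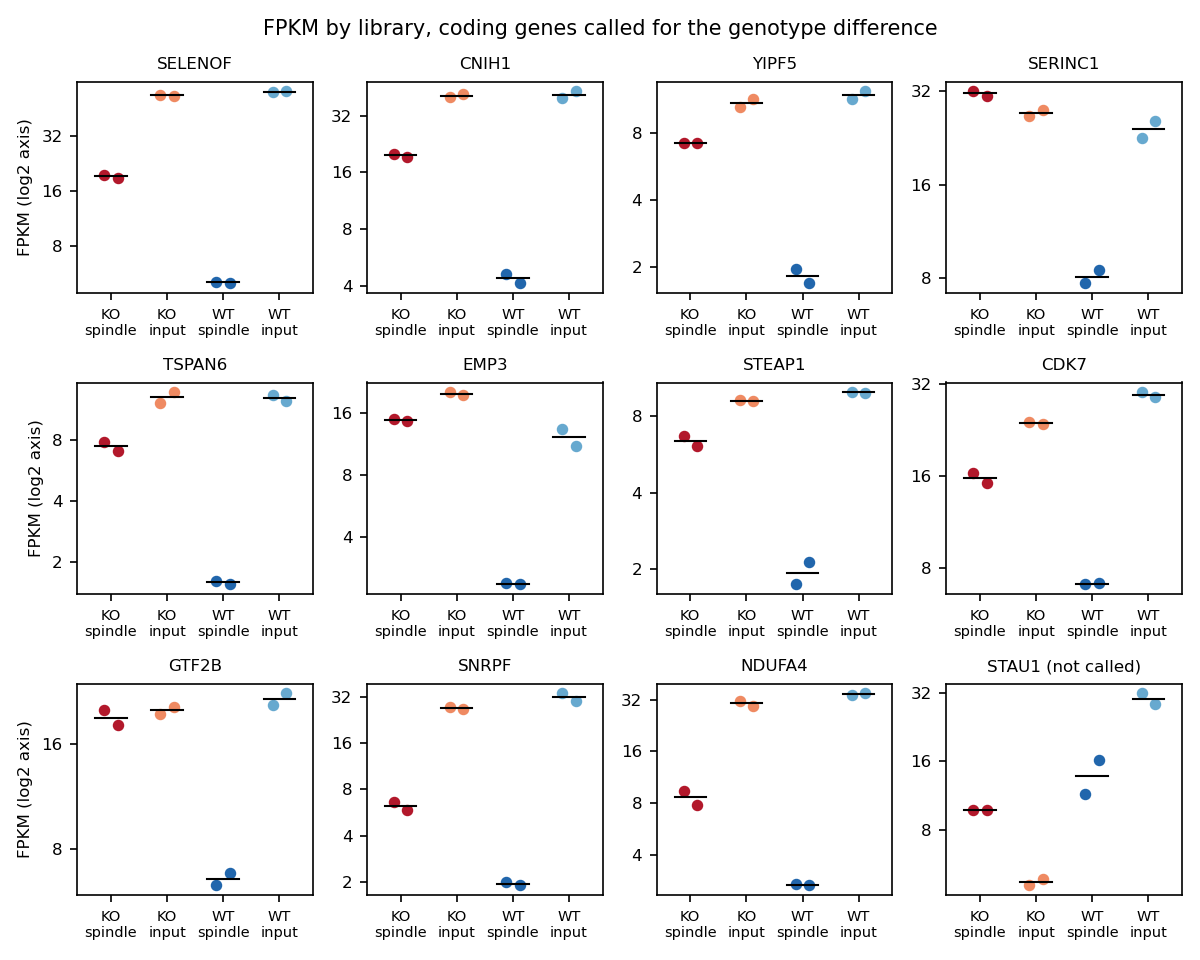
FPKM on a log2 axis in each library of STAU1-KO spindles, STAU1-KO input, WT spindles and WT input, for the 11 coding genes with a higher ratio at adjusted p under 0.05 and for STAU1, the targeted gene, at 0.05003. Points are libraries and bars are means of 2; in the 11 genes the WT spindle libraries are the lowest, as with SELENOF at 5.08 and 4.96, and in STAU1 the STAU1-KO input libraries are.

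The remaining pair are processed pseudogenes, whose reads may belong to the genes they copy. RPL17P39, a copy of RPL17, had 21 and 13 reads in STAU1-KO spindles and 71 and 80 in STAU1-KO input, against 2 and 1 in WT spindles and 68 and 67 in WT input (1.83, SE 0.15, limma adjusted p = 0.0462). RPL17 itself, named after its values were seen, was at an FPKM of 17.2 and 17.0 in STAU1-KO spindles and 21.3 in both STAU1-KO input libraries, against 18.3 and 13.5 in WT spindles and 23.7 and 23.9 in WT input. Its difference was 0.27 (SE 0.20, limma adjusted p = 0.503), and -0.02 with coding sums set equal.

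PPIAP29, a copy of the gene of cyclophilin A, had 22 and 12 reads in STAU1-KO spindles and 33 and 47 in STAU1-KO input, against 1 in each WT spindle library and 38 and 46 in WT input (2.29, SE 0.21, limma adjusted p = 0.0481). Its parent PPIA, a folding enzyme of the cytosol also named after its values were seen, was at an FPKM of 106 and 109 in STAU1-KO spindles and 298 and 288 in STAU1-KO input, against 22.2 and 32.5 in WT spindles and 313 and 269 in WT input. That is a difference of 1.95 (SE 0.30, limma adjusted p = 0.0562). Of 7 PPIA copies, PPIAP22 lay as high (2.41) and PPIAP30 lay on the other side (-0.93), and neither passed the test. How the authors' counting divides reads among such copies is not given in the sources used here.

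The 3 genes that fell rest on at most 3 reads in any library, and on 0 reads in both STAU1-KO spindle and both WT input libraries. The microRNA gene MIR4519 had 0 reads in STAU1-KO spindles and 3 and 2 in STAU1-KO input, against 2 and 1 in WT spindles and 0 in WT input (limma adjusted p = 0.0436). MIR548A3, another microRNA gene, had the same read counts, 0 in STAU1-KO spindles and 3 and 2 in STAU1-KO input, against 2 and 1 in WT spindles and 0 in WT input. AL929472.1, a coding gene known by a clone name, had 0 reads in STAU1-KO spindles and 2 and 1 in STAU1-KO input, against 2 and 1 in WT spindles and 0 in WT input. Their fitted differences of -4.45, -3.36 and -4.47 depend on the pseudocount and are no measure of size. When the recovered reads were fitted with voom in limma, 8 of the 16 genes were called on library totals, none of these 3 among them. On equal upper quartiles 15 of the 16 were called, with MIR4519 and MIR548A3 among them (limma adjusted p = 0.0444 for each) and AL929472.1 not (0.0627).

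The mature microRNA of MIR4519 is shown because it is the product of the gene with the smallest p on the lower side. In RefSeq it lies on the minus strand of GRCh38.p14 at chr16:30875301-30875318, and capitals mark its seed, bases 2 to 8.
hsa-miR-4519: cAGCAGUGcgcagggcug
The reads counted here come from libraries of total RNA and overlap the gene, so that they do not show the mature microRNA. Over the 632 microRNA genes tested, 86.4% had fewer than 10 reads in every library, against 0.36% of coding genes.

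STAU1 was the targeted gene. Its RNA stood at an FPKM of 9.83 in both STAU1-KO spindle libraries and 4.59 and 4.88 in STAU1-KO input, against 11.5 and 16.2 in WT spindles and 31.9 and 28.5 in WT input. The inputs thus follow the labels, and residual reads were present in each STAU1-KO library. Its ratio gave a difference of 2.01 (SE 0.23, limma adjusted p = 0.05003), which did not pass. STAU2, the paralog, gave 0.22 (SE 0.21, limma adjusted p = 0.603), with 5.00 and 5.37 in STAU1-KO spindles and 4.02 and 4.21 in STAU1-KO input, against 4.17 and 2.83 in WT spindles and 3.18 and 3.38 in WT input. Of 12 genes of the Staufen proteins and of nonsense-mediated decay, 6 had ratios wholly above WT (50%) and 1, SMG9, wholly below (8.33%). These shares were 30.6% and 16.4% among all coding genes. The targeted gene STAU1 is 1 of the 6, and its log2 STAU1-KO minus WT difference was -2.44 in input and -0.44 in spindles. The list median, STAU1 included, was 0.19. It was 0.28 without WT spindle replicate 1 and 0.09 without replicate 2.

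Messages listed as reported targets of Staufen-mediated decay did not move together, and none of those named here passed. ARF1, a small GTPase of the Golgi, gave 0.52 (SE 0.36, limma adjusted p = 0.458). SOWAHC gave -0.34, with all STAU1-KO ratios below all WT ratios. JUN, a transcription factor of the AP-1 family, gave -0.33, which was 0.45 without WT spindle replicate 2.

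By size, the coding genes with the highest differences among those whose ratios did not overlap were B2M, NDUFA1 and HNRNPH2. B2M encodes the light chain of MHC class I. It was at an FPKM of 78.1 and 69.7 in STAU1-KO spindles and 114 and 117 in STAU1-KO input, against 7.89 and 13.2 in WT spindles and 101 and 107 in WT input (2.59, SE 0.32, limma adjusted p = 0.05003). NDUFA1 of respiratory complex I was at 35.4 and 35.7 in STAU1-KO spindles and 106 and 110 in STAU1-KO input, against 5.19 and 8.16 in WT spindles and 125 and 103 in WT input (2.34, SE 0.29, limma adjusted p = 0.05003). HNRNPH2, a splicing regulator that binds G-rich RNA, was at 17.7 and 18.2 in STAU1-KO spindles, against 1.60 and 6.04 in WT spindles (2.24, SE 0.59, limma adjusted p = 0.120).

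The WT spindle libraries of HNRNPH2 stood far apart, and its error was larger. The same holds for S100A4, a calcium-binding protein, with 88.0 and 92.8 in STAU1-KO spindles against 10.7 and 25.1 in WT spindles (2.07, SE 0.51). It holds too for SNRPB2 of the U2 snRNP, with 28.6 and 30.2 in STAU1-KO spindles against 5.15 and 11.6 in WT spindles (1.99, SE 0.43). MRPL47 of the mitochondrial ribosome gave 1.98 (SE 0.36). None of these 3 passed (limma adjusted p = 0.107, 0.0901 and 0.0697).

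On the other side, differences of coding genes with more reads were smaller, and none of the named ones passed. PPP1R9B, the scaffold protein spinophilin, was at 17.5 and 19.2 in STAU1-KO spindles and 42.1 and 40.5 in STAU1-KO input, against 31.8 and 66.4 in WT spindles and 43.5 and 40.1 in WT input (-1.26, SE 0.44, limma adjusted p = 0.192). SDC3, a cell-surface heparan sulfate proteoglycan, was at 2.85 and 2.81 in STAU1-KO spindles and 5.06 and 4.70 in STAU1-KO input, against 5.79 and 5.24 in WT spindles and 3.81 and 3.56 in WT input (-1.09, SE 0.13, limma adjusted p = 0.05003). The order of spindle and input thus turned round between the genotypes, with STAU1-KO spindles below their input and WT spindles above theirs.

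SEMA6B, a transmembrane semaphorin, showed the same turn, with 13.2 and 12.7 in STAU1-KO spindles and 23.1 and 23.8 in STAU1-KO input, against 16.2 and 23.5 in WT spindles and 15.5 and 14.8 in WT input (-1.15, SE 0.24, limma adjusted p = 0.0841). COL18A1, a collagen of basement membranes, was at 20.9 and 21.5 in STAU1-KO spindles and 24.5 in both STAU1-KO input libraries, against 27.97 and 54.8 in WT spindles and 19.9 and 20.8 in WT input (-1.11, SE 0.40, limma adjusted p = 0.201). PROM2, a cholesterol-binding membrane protein, was at 0.833 and 0.989 in STAU1-KO spindles and 0.277 and 0.165 in STAU1-KO input, against 8.11 and 7.52 in WT spindles and 1.05 and 1.97 in WT input (-1.19, SE 0.27, limma adjusted p = 0.0960). At such low FPKM this value depends on the pseudocount, and voom on the recovered reads gave -0.11 (limma adjusted p = 0.981). PALM (-1.08), MESDC1 (-1.18) and SHISA8 (-1.27) were also on this side.

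Described by lists of genes, the messages for protein synthesis, the respiratory chain, the ER and replication-dependent histones had higher ratios in STAU1-KO cells, list by list. Single members seldom passed the test, and the lists are given by their medians and by the members whose ratios did not overlap. The same values over all coding genes were a median of 0.09, with 30.6% above and 16.4% below. With coding sums set equal that median was -0.14, and the lists described as higher from the respiratory chain to the histones kept a median above 0, both there and with equal upper quartiles.

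Of 79 nuclear-encoded respiratory chain genes, 60 had STAU1-KO ratios wholly above WT and 3 wholly below, with a median of 0.92, and 1 was called (NDUFA4). COX7A2 of cytochrome c oxidase was at an FPKM of 15.4 and 15.7 in STAU1-KO spindles and 78.5 and 78.0 in STAU1-KO input, against 4.66 and 3.37 in WT spindles and 87.0 and 77.3 in WT input (1.80, SE 0.21, limma adjusted p = 0.05003). COX6C, of the same complex, was at 11.1 and 12.9 in STAU1-KO spindles and 44.8 and 45.1 in STAU1-KO input, against 4.87 and 5.28 in WT spindles and 48.1 and 50.5 in WT input (1.23, SE 0.15, limma adjusted p = 0.05003). Of 75 mitochondrial ribosomal protein genes, 50 lay wholly above and none wholly below, with a median of 0.61, and none was called. MRPL54 gave 1.29 and MRPL13 gave 1.27, each with an SE of 0.15.

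All 83 cytosolic ribosomal protein genes gave a difference above 0 in the main fit, with a median of 0.75. Of these, 58 had ratios wholly above WT and none wholly below. The lowest difference was 8.7e-05, so that the count above 0 depends on the scaling. With coding sums set equal the median was 0.46, and RPL17, described above, was at -0.02. In the main scaling the median was 0.42 without WT spindle replicate 1 and 1.03 without replicate 2. RPS13 of the small subunit was at 47.0 in both STAU1-KO spindle libraries, against 18.5 and 19.2 in WT spindles (1.52, SE 0.17, limma adjusted p = 0.05003). RPL26 of the large subunit was at 41.4 and 42.0 in STAU1-KO spindles, against 15.4 and 18.7 in WT spindles (1.55, SE 0.20, limma adjusted p = 0.05003). In input both were lower in STAU1-KO cells, RPS13 at 200 and 201.1 against 249 and 226 in WT, and RPL26 at 134 in both libraries against 174 and 157 in WT. The list median of the STAU1-KO minus WT input difference was -0.27 and that of the spindle difference was 0.50, so that both fractions entered the list's value.

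Of 44 translation factors, 28 lay wholly above and none wholly below, with a median of 0.55, which was 0.22 without WT spindle replicate 1. EIF3E of the initiation factor eIF3 was at 48.8 and 47.7 in STAU1-KO spindles and 96.6 and 102 in STAU1-KO input, against 19.2 and 21.7 in WT spindles and 115 and 118 in WT input (1.43, SE 0.17, limma adjusted p = 0.05003). Of 61 ribosome biogenesis factors, 34 lay above and 1 below, with a median of 0.57, which was 0.18 without WT spindle replicate 1 and 0.87 without replicate 2. Proteasome genes gave 32 above and 1 below of 45, with a median of 0.69, and PSMA4 of its core gave 1.53 (SE 0.23, limma adjusted p = 0.0562). Chaperonins and heat shock chaperones gave 16 above and none below of 25, with a median of 0.83 that was 0.22 without WT spindle replicate 1 and 1.45 without replicate 2. No member of these 4 lists passed.

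Of 39 ER chaperone and translocon genes, 32 lay wholly above and 1 below, the largest share of any list given here, with a median of 0.95 that was 0.63 without WT spindle replicate 1. ERP44, which retains client proteins in the early secretory pathway, was at 12.05 and 9.91 in STAU1-KO spindles and 7.53 and 7.92 in STAU1-KO input, against 3.07 and 2.57 in WT spindles and 6.35 and 7.39 in WT input (1.49, SE 0.19, limma adjusted p = 0.05003). It lay above input in STAU1-KO spindles and below input in WT spindles. SEC62, a translocon component, was at 7.52 and 6.57 in STAU1-KO spindles and 10.1 and 10.6 in STAU1-KO input, against 2.58 and 2.45 in WT spindles and 9.38 and 10.3 in WT input (1.13, SE 0.14, limma adjusted p = 0.05003).

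Further lists were chosen after the values were seen. Of 47 genes of ER-to-Golgi transport, 29 lay above and 1 below, with a median of 0.48 that was 0.31 without WT spindle replicate 1. KDELR1, the receptor that returns escaped ER proteins, was at 26.9 and 28.2 in STAU1-KO spindles and 54.1 and 52.2 in STAU1-KO input, against 9.53 and 10.5 in WT spindles and 49.9 and 49.3 in WT input (1.28, SE 0.14, limma adjusted p = 0.05003). Of 419 genes in families of multi-pass membrane proteins, 6 were called (CNIH1, YIPF5, SERINC1, TSPAN6, EMP3 and STEAP1), against 16 of all 17210 tested (0.093%). The list was drawn up after the called genes were seen, so that this count does not measure an enrichment. The families as a whole lay at the coding median, with a median of 0.07 that was 0.02 without WT spindle replicate 2, and with 114 above and 77 below.

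Of 51 replication-dependent histone genes, 37 lay wholly above WT and 2 below, with a median of 0.88. HIST1H4D, a histone H4 gene, was at 51.2 and 50.04 in STAU1-KO spindles and 164 and 154 in STAU1-KO input, against 11.6 and 11.98 in WT spindles and 227 and 135 in WT input (2.15, SE 0.34, limma adjusted p = 0.0576). HIST2H2AC, a histone H2A gene, was at 58.4 and 56.6 in STAU1-KO spindles and 159 and 145 in STAU1-KO input, against 16.6 and 13.2 in WT spindles and 175 and 120 in WT input (1.82, SE 0.30, limma adjusted p = 0.0599). The WT input libraries differed more than the spindle libraries did in both genes. Histone messages have short coding regions that are nearly the same between copies, so that single copies are uncertain. The list's median GC content was 57.4%, and it kept a median of 0.88 and 1.02 without WT spindle replicate 1 or 2.

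**Figure D2:**
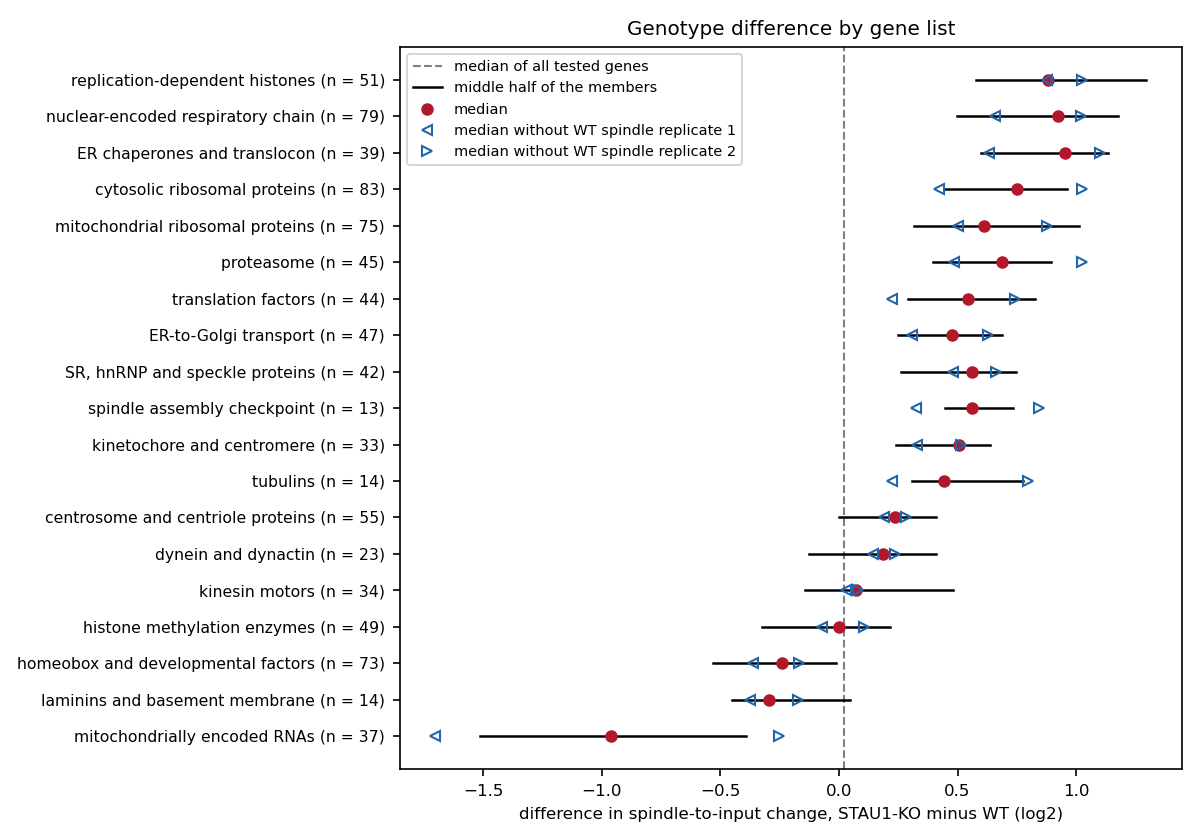
Difference in spindle-to-input change, STAU1-KO minus WT on the log2 scale, for 19 gene lists. Filled circles are medians over the tested members, lines span the 25th to 75th percentile, open triangles are medians without 1 of the WT spindle libraries, and the dashed line is the median of all genes, 0.02; histones and ER genes lie near 0.9 and mitochondrially encoded RNAs at -0.96.

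Among messages of mitotic proteins, the checkpoint, kinetochore and tubulin lists had medians above the coding median of 0.09 and the kinesins did not. Also above it were dynein and dynactin, centrosome and centriole proteins, microtubule-associated proteins (0.24), and cohesin and condensin (0.37). Of 43 microtubule-associated genes, 17 lay wholly above (39.5%) and 7 below (16.3%). Of 23 cohesin and condensin genes, 16 lay above (69.6%) and 2 below (8.70%). Without WT spindle replicate 1 these 2 medians were 0.062 and 0.20, against 0.064 over all coding genes. That of cohesin and condensin was 0.57 without replicate 2. Mitotic kinases and cyclins (0.39), the anaphase-promoting complex (0.26) and the chromosomal passenger complex (0.23) were above 0.09 too. Of 18 kinases and cyclins, 7 lay wholly above (38.9%) and 3 below. The anaphase-promoting complex gave 10 above (58.8%) and 2 below of 17, and the passenger complex 2 above (33.3%) and none below of 6. Among all coding genes 30.6% lay above. Without WT spindle replicate 1 these 3 medians were 0.16, 0.29 and 0.047. That of the passenger complex was 0.42 without replicate 2. No member was called, and differences between these lists were not tested. Of 13 spindle assembly checkpoint genes, 8 lay wholly above and none below, with a median of 0.56 that was 0.32 without WT spindle replicate 1 and 0.85 without replicate 2. MAD2L1, the checkpoint protein MAD2, was at 8.28 and 7.30 in STAU1-KO spindles and 25.5 and 28.4 in STAU1-KO input, against 2.55 and 2.74 in WT spindles and 27.9 and 25.8 in WT input (1.27, SE 0.15, limma adjusted p = 0.05003). TTK, the checkpoint kinase MPS1, was at 17.8 and 16.0 in STAU1-KO spindles and 22.5 and 26.9 in STAU1-KO input, against 6.73 and 6.22 in WT spindles and 20.3 and 19.2 in WT input (0.95, SE 0.17, limma adjusted p = 0.0684).

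Of 33 kinetochore and centromere genes, 21 lay above and 1 below, with a median of 0.51 that was 0.33 without WT spindle replicate 1. NDC80, which couples kinetochores to microtubules, gave 0.83 (SE 0.19, limma adjusted p = 0.0983), with 16.0 and 13.8 in STAU1-KO spindles against 5.999 and 7.71 in WT spindles. Of 14 tubulin genes, 5 lay above (35.7%, near the 30.6% of all coding genes) and none below. Their median was 0.44, which was 0.22 without WT spindle replicate 1 and 0.80 without replicate 2. TUBA1C, an alpha-tubulin, was at 28.9 and 26.7 in STAU1-KO spindles, against 10.4 and 11.8 in WT spindles (1.02, SE 0.17, limma adjusted p = 0.0599).

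The lists of motors and of the centrosome follow. Of 34 kinesin genes, 6 lay above and 7 below, with a median of 0.07 that was -0.15 with coding sums set equal and 0.03 without WT spindle replicate 1. KIF3A of kinesin-2 gave 0.53 and the minus-end motor gene KIFC2 gave -0.58, neither past the test. Of 23 dynein and dynactin genes, 9 lay above and 3 below, with a median of 0.19 that was -0.09 with coding sums set equal. DYNC1LI1, a light intermediate chain of dynein, gave 0.97 (SE 0.13, limma adjusted p = 0.0534). Of 55 centrosome and centriole genes, 25 lay above and 5 below, with a median of 0.24 that was -0.01 with coding sums set equal, and POC5 gave 0.64 (SE 0.12, limma adjusted p = 0.0730).

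Of the 9 messages reported at centrosomes elsewhere, 3 lay above and 2 below, with a median of 0.06 that was -0.39 without WT spindle replicate 1 and 0.51 without replicate 2. ASPM, a spindle pole protein, was at 33.9 and 28.7 in STAU1-KO spindles and 18.6 and 21.4 in STAU1-KO input, against 11.3 and 12.5 in WT spindles and 13.7 and 13.0 in WT input (0.78, SE 0.18, limma adjusted p = 0.0986). It lay above input in STAU1-KO cells and below input in WT cells. HMMR, a microtubule-binding protein of the spindle, was at 39.2 and 33.6 in STAU1-KO spindles and 49.0 and 55.0 in STAU1-KO input, against 4.59 and 16.8 in WT spindles and 35.1 and 36.4 in WT input (1.38, SE 0.69, limma adjusted p = 0.319). BICD2, a dynein adaptor, gave -0.53 (SE 0.32), with STAU1-KO ratios wholly below WT.

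The lists of regulators of development and of large proteins of the cell surface and matrix had medians under 0. Of 73 homeobox and developmental factors, 30 lay wholly below WT and 4 above, with a median of -0.24, and none was called. The median was -0.36 without WT spindle replicate 1. FOXK1, a forkhead factor, was at 10.2 and 9.75 in STAU1-KO spindles and 9.02 and 9.31 in STAU1-KO input, against 19.1 and 21.8 in WT spindles and 10.4 and 10.6 in WT input (-0.78, SE 0.14, limma adjusted p = 0.0667). HOXA5 was at 2.28 and 2.20 in STAU1-KO spindles and 2.68 and 2.73 in STAU1-KO input, against 4.41 and 5.69 in WT spindles and 2.17 and 2.60 in WT input (-1.03, SE 0.19, limma adjusted p = 0.0700). HOXB6 gave -0.82 (SE 0.19). In STAU1-KO cells spindles lay below input for HOXA5 (-0.19) and above it for FOXK1 (0.11) and HOXB6 (0.53), and in WT cells they lay above it for HOXA5 (0.83), FOXK1 (0.90) and HOXB6 (1.35). ID2, an inhibitor of basic helix-loop-helix factors, went the other way (0.92, SE 0.19, limma adjusted p = 0.0839), with input of 6.26 and 6.004 in STAU1-KO cells against 24.8 and 20.6 in WT cells.

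Of 26 giant cytoskeletal linkers, 3 lay wholly below (11.5%, against 16.4% of all coding genes) and 1 above (3.85%, against 30.6%). Of the 26, 22 were under 0, with a median of -0.30. That median was -0.73 without WT spindle replicate 1 and turned to 0.14 without replicate 2. Laminins and basement membrane genes gave 5 below and 1 above of 14, with a median of -0.29 that was -0.17 without WT spindle replicate 2. LAMA5, a laminin alpha chain, was at 44.4 and 53.3 in STAU1-KO spindles and 11.3 in both STAU1-KO input libraries, against 54.5 and 67.4 in WT spindles and 11.2 and 9.44 in WT input (-0.44, SE 0.22, limma adjusted p = 0.328). Integrins, plexins and large receptors gave 10 below (27.0%) and 8 above (21.6%) of 37. Their median was -0.25, which was -0.38 without WT spindle replicate 1 and -0.05 without replicate 2. ITGB1, the shared beta subunit, lay on the other side at 1.30 (SE 0.37). Wnt pathway genes gave 7 below and 3 above of 23, with a median of -0.22 that was -0.05 without WT spindle replicate 2, with BCL9L at -0.70 and the Wnt antagonist DKK1 at 1.01 (SE 0.15, limma adjusted p = 0.0560). The chromatin lists stood near 0, with medians of 0.00 for 49 histone methylation enzymes and 0.13 for 39 remodellers, which were -0.07 and -0.05 without WT spindle replicate 1 and 0.11 and 0.26 without replicate 2.

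Mitochondrially encoded RNAs had ratios on the opposite side from the nuclear genes that serve the same organelle. Of 37 such RNAs, 12 lay wholly below WT and none above, 31 were under 0 and the median was -0.96, but none passed the test. The WT spindle libraries disagreed: the median was -1.70 without replicate 1 and -0.25 without replicate 2. The median change from input to spindle over the 13 mitochondrial mRNAs was -1.89 and -2.23 in the STAU1-KO spindle libraries, against -2.30 and -0.76 in the WT spindle libraries, so that the genotypes overlapped. Over the 22 mitochondrial tRNA genes it was -0.05 and -0.90 in STAU1-KO spindles, against 0.40 and 0.83 in WT spindles, which did not overlap. The STAU1-KO libraries lay further from each other than the nearer one did from the nearest WT library. For these tRNA genes the median STAU1-KO minus WT difference was 0.52 in input and -0.54 in spindles, so that both fractions entered. The mRNA and tRNA lists were set apart after the values were seen. For the nuclear-encoded respiratory chain genes the median change was -1.38 and -1.34 in STAU1-KO spindles, against -2.51 and -2.003 in WT spindles.

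MT-CO2, a subunit of cytochrome c oxidase, was at an FPKM of 81.0 and 57.0 in STAU1-KO spindles and 1597 and 1552 in STAU1-KO input, against 116 and 465 in WT spindles and 1643 and 1513 in WT input (-1.76, SE 0.88, limma adjusted p = 0.318). MT-ATP8 of the ATP synthase was at 35.1 and 35.0 in STAU1-KO spindles and 379 and 328 in STAU1-KO input, against 48.0 and 167 in WT spindles and 273 and 294 in WT input (-1.64, SE 0.74, limma adjusted p = 0.278). In both, WT spindle replicate 2 stood well above replicate 1.

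The tRNA genes with the smallest p and more than 4 reads in a library were MT-TQ, MT-TC and MT-TS1, which carry glutamine, cysteine and serine. Their reference sequences, whole and 5′ to 3′ with no part marked, are those of GENCODE on GRCh38 and are shown because these tRNAs are among the shortest RNAs measured.
MT-TQ, chrMT:4329-4400, minus strand: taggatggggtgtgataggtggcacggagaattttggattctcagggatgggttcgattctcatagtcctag
MT-TC, chrMT:5761-5826, minus strand: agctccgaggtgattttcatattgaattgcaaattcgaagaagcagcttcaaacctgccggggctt
MT-TS1, chrMT:7446-7514, minus strand: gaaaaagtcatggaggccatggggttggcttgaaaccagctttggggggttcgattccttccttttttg
MT-TQ had 36 and 13 reads in STAU1-KO spindles and 71 and 121 in STAU1-KO input, against 27 and 24 in WT spindles and 14 and 36 in WT input (-2.41, SE 0.68, limma adjusted p = 0.135). MT-TC had 21 and 8 reads in STAU1-KO spindles and 42 and 55 in STAU1-KO input, against 12 and 26 in WT spindles and 13 and 24 in WT input (-2.02, SE 0.85, limma adjusted p = 0.253). MT-TS1 had 113 and 64 reads in STAU1-KO spindles and 33 and 49 in STAU1-KO input, against 42 and 54 in WT spindles and 11 in each WT input library (-1.17, SE 0.49, limma adjusted p = 0.254). For MT-TQ and MT-TC the FPKM of STAU1-KO input exceeded that of every WT input library, so that input entered the difference as well as spindles. For MT-TS1 the difference lay in the input, which was 1.22 higher in STAU1-KO than in WT cells on the log2 scale, while spindles differed by 0.05.

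**Figure D3:**
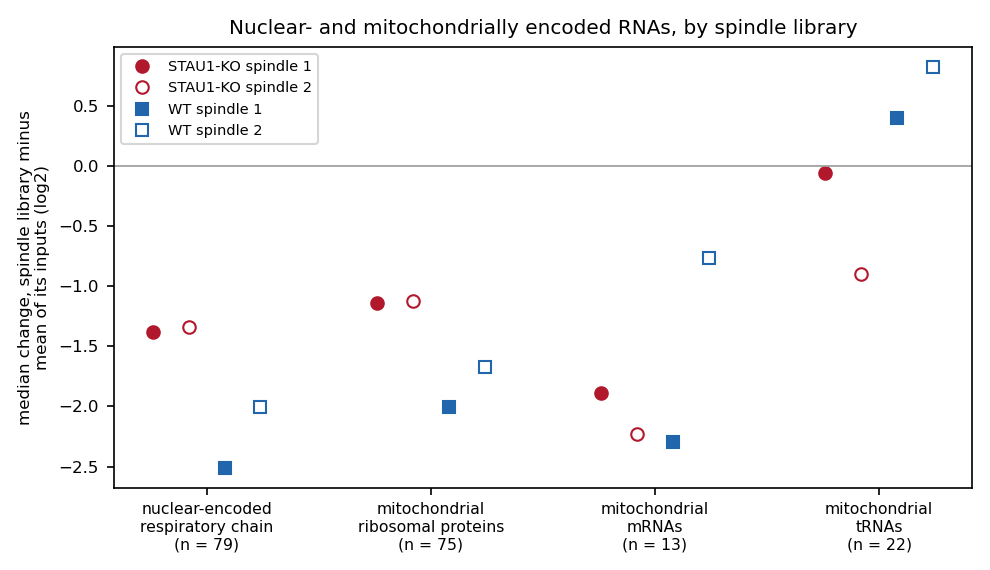
Median change of each spindle library from the mean of its own inputs, on the log2 scale, for 4 sets of genes of the mitochondrion. Circles are STAU1-KO and squares WT libraries; nuclear-encoded respiratory chain genes lie higher in STAU1-KO spindles (-1.38 and -1.34) than in WT spindles (-2.51 and -2.003), mitochondrial tRNAs lie lower, and mitochondrial mRNAs overlap.

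Over 2376 long noncoding RNA genes the median was -0.17, with 485 wholly below (20.4%) and 135 above (5.68%). Among all genes these shares were 16.9% and 23.6%. That median was -0.09 without WT spindle replicate 1 and -0.27 without replicate 2. In the lists of small noncoding RNAs below, differences were mostly built on few reads or moved with the WT spindle libraries. RPPH1, the RNA of the tRNA-processing enzyme RNase P, was well read. It was at an FPKM of 126 and 154 in STAU1-KO spindles and 15959 and 15289 in STAU1-KO input, against 1505 and 2305 in WT spindles and 21391 and 21972 in WT input. The STAU1-KO spindle libraries were below every other library, and the difference was -3.26 (SE 0.78, limma adjusted p = 0.104), which did not pass. The table lists RPPH1 under an identifier that GENCODE assigns to AL355075.4, so that the symbol is the authors'.

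Spliceosomal snRNA genes gave a median of -0.22 that was 0.05 without WT spindle replicate 1 and -0.57 without replicate 2. Small RNAs of Cajal bodies gave -0.33 over 28, with 5 wholly below (17.9%) and none above, near the 16.9% below among all genes, and -0.21 without WT spindle replicate 1. MicroRNA genes listed by symbol gave -0.45 over 457, with 82 below (17.9%) and 36 above (7.88%), against 16.9% and 23.6% among all genes. Their median was -0.11 without WT spindle replicate 1 and -0.77 without replicate 2. C/D box and H/ACA snoRNAs, which guide modification of ribosomal RNA, gave medians of -0.04 and -0.06, which were 0.22 and -0.03 without WT spindle replicate 1 and -0.20 and -0.29 without replicate 2. SNORD73, a C/D box RNA named for the size of its fitted difference (2.69), had 1 and 2 reads in STAU1-KO spindles and 2 and 3 in STAU1-KO input, against 0 in WT spindles and 4 in each WT input library. It was not called (limma adjusted p = 0.0599), and at such counts the fitted difference is no measure of size. MIR4753, MIR190A, RNU7-80P and SNORD112 on the lower side, and MIR3173, MIR4442 and SNORD42B on the higher, likewise had at most 8 reads in any library.

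The difference moved with base composition across coding genes, which are not independent replicates. By deciles of GC content, the median was lower at each step up, with 0.37 in the lowest decile (31.4% to 37.7% GC) and -0.31 in the highest (58.2% to 76.3% GC), a gap of 0.67. In the lowest decile 57.5% of genes had STAU1-KO ratios wholly above WT and 1.46% wholly below, and in the highest decile 4.71% lay above and 38.7% below. By library, the median change of the lowest decile was -0.05 and -0.11 in STAU1-KO spindles, against -0.36 and -0.44 in WT spindles. That of the highest decile was -0.26 and -0.20 in STAU1-KO spindles, against -0.09 and 0.25 in WT spindles. The gap was 0.87 without WT spindle replicate 1 and 0.42 without replicate 2.

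Length moved with it too. The median was 0.32 in the decile of coding genes with the shortest transcripts (up to 1503 nt) and -0.01 in the decile with the longest (7097 nt or more). These medians were 0.20 and 0.03 without WT spindle replicate 1, and 0.47 and -0.03 without replicate 2. Split by tertiles of both, short low-GC genes had a median of 0.53, with 64.7% wholly above and 1.73% below, and long high-GC genes had -0.36, with 0.955% above and 55.4% below. Of the 13 genes that rose, 11 had a GC content under the median of the tested genes, 45.5%. When a smooth GC trend was taken out of each library, 16 genes were again called, 10 of them shared with the 16 above. The list medians then stood, relative to all genes, at 0.82 for ER chaperones, 0.78 for the respiratory chain, 1.04 for histones, 0.74 for cytosolic ribosomal proteins and 0.31 for kinetochore genes, against 0.93, 0.90, 0.86, 0.73 and 0.48 without that step. Other lists moved closer to all genes: centrosome proteins stood at 0.05 against 0.21 without that step, integrins and large receptors at -0.12 against -0.28, laminins at -0.15 against -0.32, developmental factors at -0.17 against -0.26 and Wnt genes at -0.17 against -0.25. The part of GC content, length and ribosomal RNA in the gene differences was otherwise not tested.

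**Figure D4:**
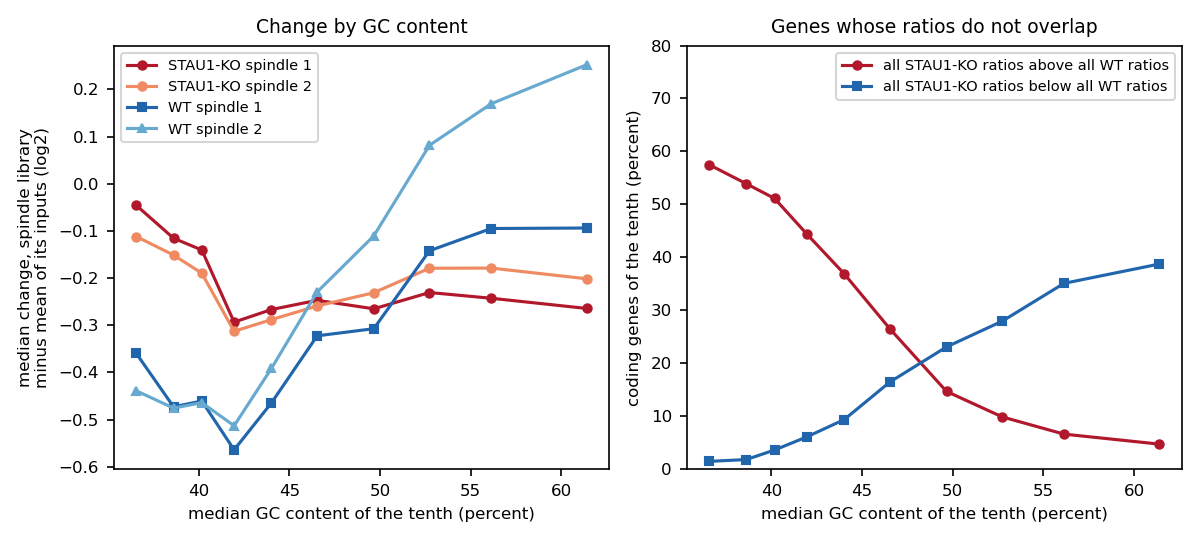
Coding genes in deciles by GC content (x axis, median percent of the decile). The left panel plots the median log2 change of each spindle library from its inputs, where STAU1-KO libraries start at -0.05 and -0.11 and WT libraries at -0.36 and -0.44; the right panel plots the percent of genes whose ratios do not overlap, with 57.5% above and 1.46% below in the lowest decile and 4.71% above and 38.7% below in the highest.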

How the data were processed

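Total RNA of 8 HCT116 libraries was analysed in 4 groups of 2. Per the submitters' processing notes, the tools were FastQC, TopHat, featureCounts and DESeq2, the genome was GRCh37, and versions are not given in the sources used here. The authors deposited FPKM values per gene and library, scaled by their size factors, and GC content as a percent per gene. The comparison tables they deposited give a base mean, a normalised signal averaged over libraries, which served to recover whole reads (100% within 0.01 of a whole number) for depth. Their fold changes and p-values were not used.

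Here limma 3.58.1 in R 4.3.3 was fitted to log2(FPKM + 1) with 4 group means and a trend in the prior variance (4 residual and 2.25 prior degrees of freedom). Tests were two-sided, adjusted by Benjamini-Hochberg over 17210 genes. The script was checked on simulated data in which all libraries varied alike, so that the check does not cover the wider spread of the WT spindle libraries. Members, lists and tests were chosen with earlier results of these data known. Named genes were STAU1, STAU2, all called genes, up to 4 of each list by p, and by size of difference 10 coding and 5 noncoding genes in either direction (ratios not overlapping, unadjusted p under 0.05, mean FPKM of at least 1). Those known only by a clone name were counted and not named, except AL929472.1, which was called. Symbols that the table shows as dates were looked up by identifier. A gene that this rule names is not reported here.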

Additional observations from a re-analysis of the deposited data

Results flagged for a closer look

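Each of the 16 genes called for the difference is itself a test that the spindle-to-input change differed between STAU1-KO and WT cells. On the log2 scale, the differences of STAU1-KO minus WT were 1.81 for SELENOF, 1.96 for CNIH1, 1.69 for TSPAN6, 1.65 for YIPF5, 1.67 for SERINC1, 1.34 for CDK7, 1.499 for GTF2B, 1.53 for SNRPF, 1.57 for EMP3, 1.42 for STEAP1 and 1.56 for NDUFA4. The pseudogenes RPL17P39 and PPIAP29 stood at 1.83 and 2.29. MIR4519, AL929472.1 and MIR548A3 stood at -4.45, -4.47 and -3.36, on at most 3 reads in any library. With 2 libraries a group, no group was large enough for a check of single outlying libraries.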

How the results depend on the processing

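The number of genes called was the least stable value. Against 16, limma called 174 with a pseudocount of 0.1, 348 with 0.01, 10 with no filter on low values, 106 with a mean FPKM of at least 1, 294 with equal coding sums (145 higher and 149 lower), 67 with equal upper quartiles and 494 with coding genes alone. It called 0 with equal coding medians (3608 at an unadjusted p under 0.05) and 0 with library weights (2985). Deviations of replicate 1 from its group mean correlated between groups at -0.05 to 0.02, so that same-numbered libraries shared no visible deviation. Whether same-numbered libraries came from the same culture cannot be told from this. With a replicate block 0 genes were called (3125 at an unadjusted p under 0.05), as with a replicate block within genotype (0 and 2769). Leaving out 1 library gave 0 to 3938: 3848 without WT spindle replicate 1, 3938 without WT spindle replicate 2 and 0 without any other (1965 to 2600 at an unadjusted p under 0.05), where the lone library is assumed to vary like the other groups. With fits chosen after seeing the data, voom in limma called 265 on library totals and 493 on equal upper quartiles. Genes with ratios wholly above WT numbered 2026 with equal coding sums and 4574 to 6318 with 1 library left out. Those wholly below numbered 4958 with equal coding sums, 1908 among coding genes alone and 3512 to 5367 with 1 library left out. The gap between the outer GC deciles was 0.849 with a pseudocount of 0.01, 0.860 with voom on library totals, 0.121 with the GC trend removed and 0.415 to 0.875 with 1 library left out. The 16 called genes kept their direction in each alternative that tested them, at an adjusted p of 0.0011 to 0.305, and were called in 9 to 13 of 22 or 23. Directions reversed for JUN (-1.10 to 0.449 with 1 library left out, the highest without WT spindle replicate 2) and RPL17 (-0.0173 with equal coding sums). The cause of these shifts was not tested. The planned edgeR and DESeq2 fits were not run, and voom on the recovered reads took their place. Depth limits RNAs with few reads: 35.9% of noncoding genes tested had fewer than 10 in every library.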
